A study of Mus musculus with 6 samples.

Results

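Tight junction transcripts were described in mouse liver through 9 genes: the claudins Cldn1, Cldn2, Cldn3, Cldn5, Cldn12 and Cldn14, the occludin gene Ocln, the junctional adhesion molecule gene F11r, and Tjp1, which encodes the scaffold ZO-1. They were chosen by symbol, and each of the 9 matched 1 of the 43346 gene IDs in the count tables. The 6 liver libraries came from C57BL6 mice aged 3 months, 3 labelled Control and 3 labelled DKO, a double knockout of β-catenin (Ctnnb1) and γ-catenin (Jup) that the study's design text places in hepatocytes alone. The sources used here name neither the Control genotype nor the Cre line. Cells of the liver other than hepatocytes would keep their catenins if the deletion was confined to hepatocytes, which was not checked here. Nothing in the labels ties the libraries to separate animals, and the p-values therefore cover only the spread between these libraries, which may be technical.

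Tight junctions close the space between neighbouring epithelial cells, and in the liver they seal the bile canaliculus, the narrow channel between hepatocytes that receives bile, from the blood side. Claudins span the membrane and form the strands of the junction: some tighten the seal, and others form pores that let ions and water through. Occludin joins these strands, junctional adhesion molecules are immunoglobulin-like proteins at the same contact, and ZO-1 ties the membrane proteins to actin below them. The catenins act at the adherens junction, which assembles next to the tight junction, and β-catenin also carries the Wnt signal to the nucleus.

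The labelled DKO libraries held little liver RNA, and this touches every value below. Reads assigned to genes numbered 12320487 to 15869639 in Control, and DKO replicates 1, 2 and 3 had 309731, 525037 and 1491237. Rows that name no gene took 65.1% to 66.7% of all reads in Control and 95.3% to 97.3% in the DKO libraries. Albumin (Alb), the main plasma protein of hepatocytes, made up 6.58% to 7.66% of the reads on genes in Control, and 0.0933%, 3.08% and 0.322% of them in DKO replicates 1, 2 and 3. The 10 hepatocyte markers summed to 107713 to 125274 counts per 1000000 gene-assigned reads (CPM) in Control and to 2499, 50640 and 6481 in the DKO libraries, with no marker at 0. Ctnnb1 had 2945, 2896 and 2650 Control counts against 0, 52 and 65 DKO counts, and Jup had 339, 270 and 196 against 6, 1 and 11. Neither passed the test (adjusted p = 0.171 and 0.0847, edgeR's quasi-likelihood test), while DESeq2 called Jup lower (adjusted p = 0.013, and 0.0531 for Ctnnb1), so each direction below is one between libraries as labelled. In bulk tissue, fewer cells of a type and less RNA per cell cannot be told apart.

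In Control liver Cldn3 stood highest of the 9 genes when reads were set against exonic length. Cldn3, a sealing claudin, had 49.5, 45.9 and 43.1 reads per kb of exon and per 1000000 gene-assigned reads (RPKM) in Control replicates 1, 2 and 3, a mean of 46.2 ± 3.2 (SD, n = 3). F11r, which encodes JAM-A, followed with 23.8 ± 4.37, the pore-forming Cldn2 with 18.1 ± 1.61 and Cldn12 with 14.7 ± 1.62. The ranges of these 4 genes over the 3 libraries did not touch each other. Below them came Cldn1, a sealing claudin, with 7.24 ± 1.84, then Ocln with 5.46 ± 2.38, Cldn14 with 4.22 ± 0.59, the endothelial claudin Cldn5 with 3.72 ± 0.95 and Tjp1 with 3.56 ± 0.28. From Cldn1 downward each gene overlapped its neighbour in the order, while Cldn1 lay wholly above Cldn14, Cldn5 and Tjp1, and Ocln wholly above Tjp1. Control replicate 1 carried the highest Ocln and Cldn1 levels per kb, 8.21 and 9.16, against 4.16 and 4.02 for Ocln and 5.49 and 7.06 for Cldn1 in replicates 2 and 3. The same Control library also had the highest sum of every marker set counted here. Endothelial markers gave 320 CPM there against a lowest Control value of 170, and bile duct markers 99.5 against 71.6. Kupffer cell markers gave 234 against 171, stellate cell markers 372 against 233 and hepatocyte markers 125274 against 107713. The part of any cell type in these levels was not tested.

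**Figure D1:**
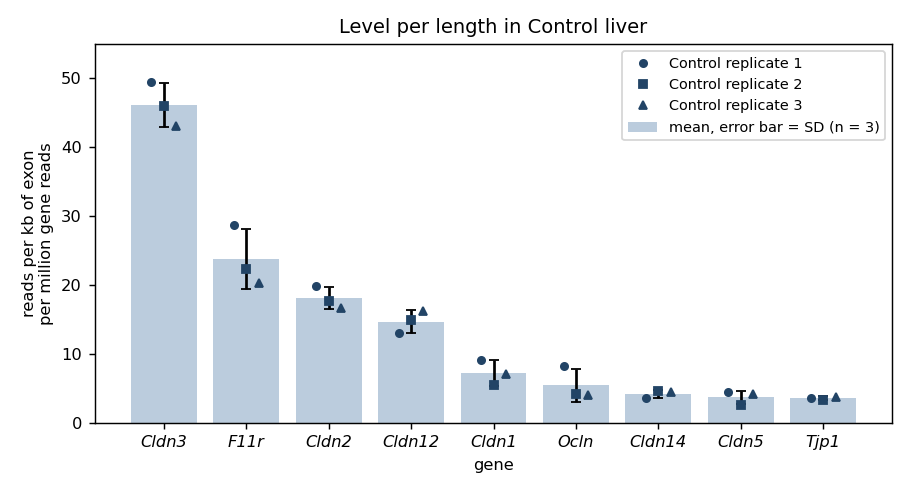
Level of the 9 tight junction genes in the 3 Control livers in RPKM. Bars are means, error bars are SD and symbols are single libraries. Cldn3 lies near 46.2, F11r, Cldn2 and Cldn12 lie between 13.0 and 28.7, and the other 5 genes lie below 10.

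Claudins outside the 6 listed ones gave few reads in Control liver. Of 23 other claudin genes and close relatives, 15 had no read in any Control library, Cldn4 among them, and the whole set summed to 1.15 to 2.52 CPM. The 6 listed claudins summed to 220 to 241 CPM. The highest of the others per length was Cldn7, a claudin of many epithelia, with 13, 6 and 3 counts and 0.26 ± 0.15 RPKM. Among other membrane proteins of the junction, Lsr, which marks the corners where 3 cells meet, reached 45.4 ± 2.98 RPKM. That range overlapped the range of Cldn3.

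Of the 9 genes, 2 were called lower in the labelled DKO libraries and 0 higher. Over all 15561 tested genes 12.8% were called lower and 31.3% higher, 44.1% in either direction, at an adjusted p under 0.05 in edgeR's quasi-likelihood test after TMM scaling. With DESeq2 5 of the 9 were called lower and 0 higher, beside 30.7% of all genes lower and 35.3% higher. Set singly against Control, a fit whose spread comes from Control alone, DKO replicates 1, 2 and 3 gave 6, 5 and 5 of the 9 lower, beside 44.9%, 28.6% and 33.8% of all genes. They gave 1, 1 and 0 higher, beside 24.3%, 25.3% and 35%. In 5 genes every DKO library lay below every Control library in TMM-scaled CPM, namely Cldn1, Cldn2, Cldn3, Cldn5 and Cldn12. Such a separation downward held for 36.4% of all tested genes and upward for 34%, and 0 of the 9 genes were separated upward. The median log2 fold change of the 6 claudins was -2.80, that of Ocln, F11r and Tjp1 was 0.08, and that of all tested genes was -0.08. The 10 hepatocyte markers had a median of -2.93. None of the 10 was called with edgeR, and all 10 were called lower with DESeq2 (adjusted p of at most 0.0286).

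**Figure D2:**
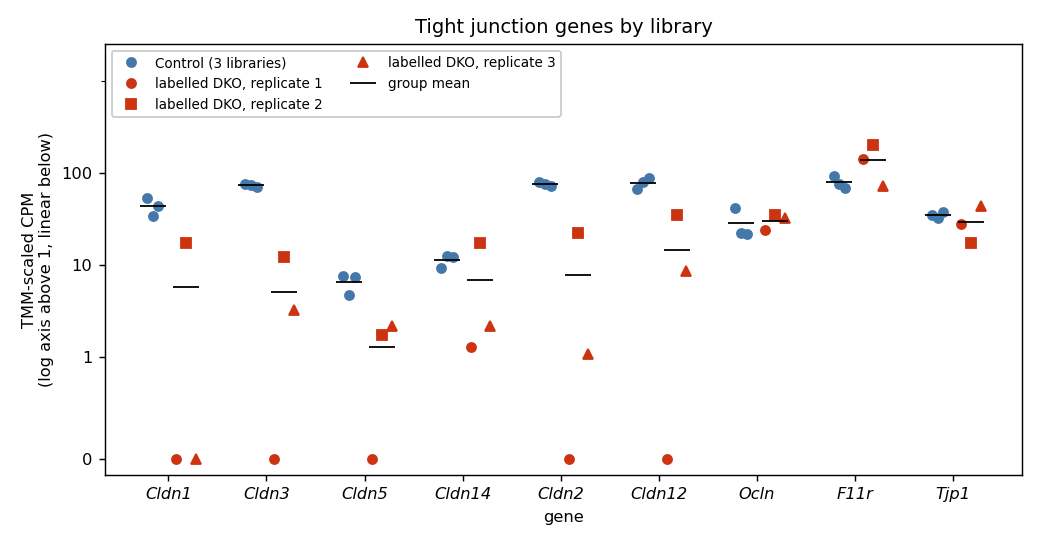
TMM-scaled CPM of each gene in each library, on an axis that is linear below 1 and logarithmic above. Blue points are Control, red symbols are the labelled DKO libraries and black lines are group means. The red symbols of Cldn1, Cldn2, Cldn3, Cldn5 and Cldn12 lie below all blue points, and those of Ocln, F11r, Tjp1 and Cldn14 mix with them.

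Cldn3 was the sealing claudin that passed the threshold. Cldn3 (ENSMUSG00000070473, chromosome 5, 134986214 to 134987472, plus strand of mm10) has a single exon. Its counts were 988, 807 and 668 in Control replicates 1, 2 and 3 and 0, 7 and 3 in DKO replicates 1, 2 and 3. On the TMM scale that was 72.8 ± 3.07 CPM in Control and 5.09 ± 6.23 in DKO (SD, n = 3 each), and every DKO library lay far below Control. The log2 fold change came to -3.94, with SE 0.94 and adjusted p = 0.00773. The call held without any single library, with adjusted p from 0.00172 to 0.0411 and log2 fold changes from -5.54, without DKO replicate 2, to -3.51. After subtraction of expected background reads the log2 fold change was -4.25 and the adjusted p 0.0942, and on a scale set by abundant liver transcripts they were -0.98 and 0.419. A short stretch of 40 exonic bases overlaps an antisense gene, whose reads cannot be told apart if counting ignored strand.

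Cldn2, the claudin known for a pore that passes cations and water, was the other call. Cldn2 (ENSMUSG00000047230, chromosome X, 139800828 to 139811386, plus strand) was covered by 1047, 819 and 684 reads in the Control libraries and by 0, 13 and 1 in the DKO libraries. Its level was 75.2 ± 4.44 TMM-scaled CPM in Control and 7.81 ± 12.6 in DKO. The log2 fold change came to -3.40, with SE 1.12 and adjusted p = 0.0345. Nearly all of its DKO reads thus came from replicate 2, the library with the most albumin. Without Control replicates 1, 2 and 3 the log2 fold change stayed at -3.22, -3.35 and -3.39, with adjusted p of 0.117, 0.0918 and 0.0961. It was -2.69 (adjusted p = 0.0710) without DKO replicate 3, -3.36 (0.195) after background subtraction, -2.82 (0.0607) on library size alone and -0.93 (0.447) on the abundant-gene scale. Without DKO replicate 2 it was -7.13 (0.00226).

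The 250 bases before the RefSeq start of these 2 called genes and of F11r are shown, because these 3 genes lie at opposite ends of the fold changes. The build is GRCm38.p6. Capitals mark matches, on either strand, to the letters TATAAA (the binding letters of the TBP factor), CTTTGAT (a core bound by TCF/LEF factors), CAAAGTCCA (an HNF4 element) or CAGGTG (an E-box bound by Snail factors).
Cldn3, chr5:134985964-134986213, plus strand: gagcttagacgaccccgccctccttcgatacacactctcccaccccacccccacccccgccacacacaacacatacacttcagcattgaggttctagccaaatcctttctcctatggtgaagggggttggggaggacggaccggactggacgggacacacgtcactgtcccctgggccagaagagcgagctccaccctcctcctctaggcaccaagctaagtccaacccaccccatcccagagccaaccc
Cldn2, chrX:139800558-139800807, plus strand: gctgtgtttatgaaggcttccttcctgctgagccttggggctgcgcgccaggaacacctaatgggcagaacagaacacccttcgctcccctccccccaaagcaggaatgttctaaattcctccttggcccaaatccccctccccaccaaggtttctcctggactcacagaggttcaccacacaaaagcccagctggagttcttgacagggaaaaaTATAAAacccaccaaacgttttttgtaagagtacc
F11r, chr1:171437311-171437560, plus strand: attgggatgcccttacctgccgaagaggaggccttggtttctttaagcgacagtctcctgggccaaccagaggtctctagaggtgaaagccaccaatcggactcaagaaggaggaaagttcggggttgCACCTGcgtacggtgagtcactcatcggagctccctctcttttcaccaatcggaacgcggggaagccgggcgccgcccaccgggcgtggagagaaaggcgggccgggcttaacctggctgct
Cldn2 held TATAAA 35 bases before its start. Of 27025 promoter windows of the same length, 12.98% held TATAAA at any position on either strand, and the share at that distance was not counted. F11r held CACCTG, the reverse complement of CAGGTG, 122 bases before its start, and 17.1% of windows held CAGGTG in either orientation. The other 7 of the 9 windows, that of Cldn3 included, held none of the 4 letter strings, of which CTTTGAT occurred in 3.26% and CAAAGTCCA in 0.377% of all windows. The Cldn3 and F11r windows held 60.8% and 60% G and C with 9 and 17 CpG pairs, and the Cldn2 window held 52% with 4. These matches describe letters and show no binding.

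Cldn1, Cldn12 and Cldn5 lay below Control in every DKO library without passing the threshold. Cldn1 (ENSMUSG00000022512, chromosome 16, 26356642 to 26371841), which builds the seal in hepatocytes and bile ducts, showed 704, 371 and 421 counts among Control libraries against 0, 10 and 0 in DKO, which gave a log2 fold change of -3.10 with SE 1.21 and adjusted p = 0.0631. All 10 of its DKO reads came from replicate 2, so that no DKO read was left without that library (adjusted p = 0.00275). Without DKO replicate 1 Cldn1 was called lower, at -2.71 (adjusted p = 0.0413). Cldn12 (ENSMUSG00000046798, chromosome 5, 5489537 to 5514958), a claudin that lacks the usual binding motif for ZO proteins at its end, had 870, 881 and 843 Control counts against 0, 20 and 8 in DKO. Its log2 fold change was -2.50, with SE 1.03 and adjusted p = 0.0742. Without DKO replicate 1 or 2 Cldn12 was called lower, at -2.07 (adjusted p = 0.018) and -4.26 (0.00957). Cldn5 (ENSMUSG00000041378, chromosome 16, 18776847 to 18778262), known best from endothelial cells, had 99, 52 and 72 Control counts against 0, 1 and 2 in DKO. Its log2 fold change was -2.32, with SE 0.96 and adjusted p = 0.0745. On 3 DKO reads the pooled level of Cldn5 was 5.05-fold lower, with an exact 95% interval of 1.71 to 24.7 that covers counting error only. DESeq2 called these 3 genes lower, with adjusted p of 0.0299 for Cldn1, 0.0113 for Cldn12 and 0.0211 for Cldn5.

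Cldn14 (ENSMUSG00000047109, chromosome 16, 93919031 to 94008837), a tightening claudin known from the inner ear, kidney and liver, overlapped between the groups. Its Control counts were 120, 138 and 117, and its DKO counts 1, 10 and 2. The TMM-scaled level of DKO replicate 2, 17.2 CPM, lay above the Control mean of 11.3 ± 1.86, and replicates 1 and 3 lay below it at 1.27 and 2.16. The log2 fold change was -0.81, with SE 0.94 and adjusted p = 0.488. It rested on DKO replicate 2: without that library Cldn14 was called lower, at -2.84 (adjusted p = 0.018), and without DKO replicate 1 or 3 it was at -0.48 or -0.18.

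Ocln, F11r and Tjp1 kept reads in every DKO library, DKO replicate 1 included. F11r (ENSMUSG00000038235, chromosome 1, 171437535 to 171464603) had 1212, 830 and 666 Control counts and 111, 116 and 67 DKO counts. Its level was 79.1 ± 12 TMM-scaled CPM in Control, and DKO replicates 1, 2 and 3 had 141, 200 and 72.5. On that scale the third value lay inside the Control range and the other 2 above it. In RPKM, which is not TMM-scaled, DKO replicate 3 (16.9) lay below the Control range of 20.3 to 28.7. Replicates 1 and 2 lay above it there too (135 and 83.0). The log2 fold change was 0.80, with SE 0.69 and adjusted p = 0.354. Set singly against Control, DKO replicates 1, 2 and 3 gave F11r log2 fold changes of 0.89, 1.34 and -0.31. Leaving out DKO replicate 2 moved the log2 fold change of F11r to 0.27 (adjusted p = 0.677), and leaving out replicate 3 moved it to 1.43 (0.0977).

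Ocln (ENSMUSG00000021638, chromosome 13, 100496507 to 100552718), the occludin gene, had 550, 245 and 209 Control counts and 19, 20 and 30 DKO counts. On the TMM scale these were 42, 22.3 and 21.7 CPM against 24.2, 34.4 and 32.5, so that the DKO values fell between the Control values. Its log2 fold change was 0.08, with SE 0.56 and adjusted p = 0.912. Tjp1 (ENSMUSG00000030516, chromosome 7, 65296165 to 65527781) had 455, 354 and 363 Control counts and 22, 10 and 40 DKO counts, or 34.9 ± 2.73 and 29.5 ± 13.1 TMM-scaled CPM. Its log2 fold change was -0.23, with SE 0.56 and adjusted p = 0.745. On the TMM scale DKO replicate 3 lay above all Control libraries for Tjp1 and replicates 1 and 2 below them.

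The mix of reads within the 9 genes needs no scaling between libraries. The claudin and F11r shares of it were chosen after the counts were seen and are given as a description, with no test. The 6 claudins gave 63.3%, 68.2% and 69.4% of the reads of the 9 genes in Control replicates 1, 2 and 3. They gave 0.654% in DKO replicate 1 (1 of 153 reads, 95% Wilson interval 0.115 to 3.61), 29.5% in replicate 2 (61 of 207, 23.7 to 36.0) and 10.5% in replicate 3 (16 of 153, 6.54 to 16.3). The groups did not overlap, with means of 67.0% ± 3.21 and 13.5% ± 14.7 (SD, n = 3 each). The F11r share was 16.5% to 20.1% in Control and 72.5%, 56.0% and 43.8% in DKO. Background reads alone would have given claudin shares of 48.9%, 51.1% and 50.8% in DKO replicates 1, 2 and 3, and the observed shares lay below these.

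**Figure D3:**
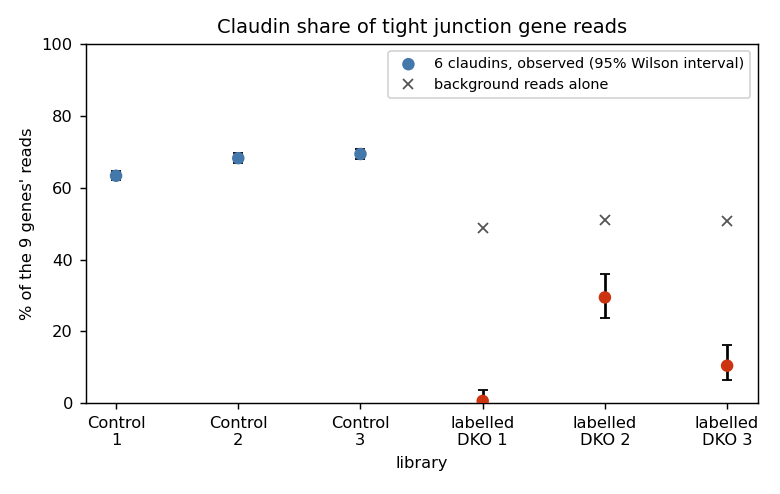
Share of the reads of the 9 genes that came from the 6 claudins, in percent, for each library. Blue points are Control and red points labelled DKO, bars are 95% Wilson intervals for counting error, and crosses give the share expected of background reads. Control libraries lie between 63.3% and 69.4% and the DKO libraries between 0.654% and 29.5%.

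Reads were also set beside an expectation built from each DKO library. Background was taken from 8600 protein-coding genes nearly silent in Control, by exonic length and GC content, and liver reads from the Control count times the library's level of 163 abundant liver genes. In DKO replicate 2 the 6 claudins had 61 reads where 77.3 were expected, 60.9 of them from liver transcripts. There Cldn1 had 10 reads against 10.7 expected and Cldn12 had 20 against 21.0, so these claudins were not low beside other liver transcripts of that library. Cldn2 had 13 against 19.9 and Cldn3 had 7 against 17.2, the 2 claudins with the larger shortfall in reads. Cldn5 had 1 against 3.30, and Cldn14 lay above its expectation with 10 against 5.21.

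In DKO replicates 1 and 3 the same expectation was mostly background. Only 1.504 claudin reads were expected from liver transcripts in replicate 1 and 17.8 in replicate 3, beside 21.9 and 39.4 from background, and 1 and 16 were observed. Silence of the claudins in replicate 1 was therefore not informative about liver transcripts at this depth. Background was uneven from gene to gene: of nearly silent genes with at least 5 expected reads, 41.7%, 33.4% and 27.0% had none in replicates 1, 2 and 3.

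F11r lay above its expectation in all 3 DKO libraries. It had 111 reads against 5.58 expected in replicate 1, 116 against 20.5 in replicate 2 and 67 against 14.5 in replicate 3. That is 21.5, 32.8 and 7.04 times the background alone, where the 99th percentile of nearly silent genes was 9.88, 6.96 and 8.75 times. Replicate 3 thus lay below that percentile and the other 2 above it. Ocln had 19, 20 and 30 reads against 5.60, 9.74 and 9.43 expected, and Tjp1 had 22, 10 and 40 against 12.5, 16.04 and 23.2. Both genes stayed under the 95th percentile of background in replicates 1 and 3, which was 4.50 and 4.17 times the expected background. In replicate 2, where that percentile was 3.54 times, Ocln reached 5.82 times and Tjp1 1.15 times. These multiples leave out reads expected from liver transcripts, in replicate 2 17.0 for F11r, 6.30 for Ocln and 7.36 for Tjp1. Beside background and liver reads together these genes had 5.65, 2.05 and 0.62 times the expected reads there. The percentiles come from genes nearly silent in Control with at least 5 expected reads and set no bound for liver transcripts. In replicate 2 F11r and Ocln had 3.53 and 3.43 expected background reads, under that limit, so the percentiles are not matched to them there.

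**Figure D4:**
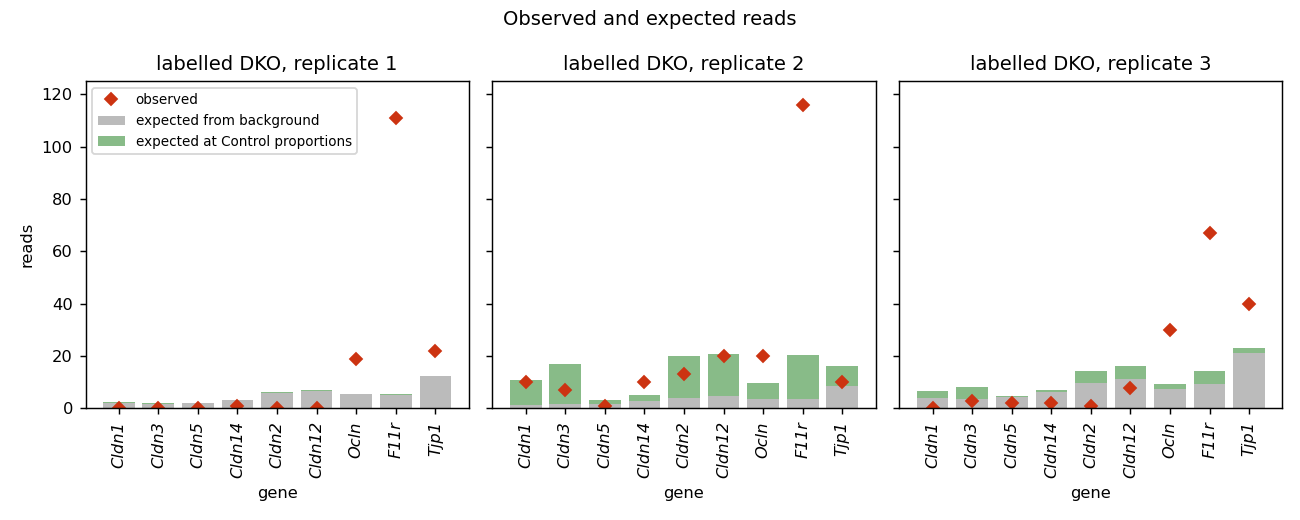
Reads of each gene in the 3 labelled DKO libraries. Grey bars give the reads expected from background, green bars those expected at Control proportions of liver transcripts, and red diamonds the observed reads. F11r stands above its bars in each panel, with 111, 116 and 67 reads. Of the claudins only Cldn14 in replicate 2 lies above its bars, and Cldn1 and Cldn12 lie just below theirs there.

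Markers of other liver cells were counted beside the 9 genes, since Ocln is made by several epithelial cells and F11r also by endothelial cells. Marker sums are in CPM without TMM scaling, unlike the TMM-scaled F11r and Ocln levels above. The 8 endothelial markers together gave 170 to 320 CPM among Control libraries. DKO replicate 1 had a sum of 869, replicate 2 of 278 and replicate 3 of 170. TMM scaling divides the sum of DKO replicate 1 by 2.68 and the Control sums by 0.78 to 0.83. The higher endothelial sum of DKO replicate 1 therefore depends on the scale. Of the 8 endothelial markers 1 was called higher, Pecam1 (342, 110 and 113 counts against 182, 44 and 82), and 0 lower. Egfl7 and Clec4g were at 0 in DKO replicate 1. The 8 bile duct markers, also without TMM scaling, gave sums of 71.6 to 99.5 CPM among Control libraries, against 326, 192 and 145 for DKO. Of 6 tested 3 were called higher, Sox9, Epcam and Krt7, and 1 lower, Spp1, beside 31.3% and 12.8% of all tested genes. After background subtraction Sox9 and Epcam kept their calls (adjusted p = 0.0102 and 0.0415) and Spp1 did not (0.237), while Krt7 had 16 DKO reads where 47.7 were expected from background. Epcam and Krt7 lay under the filter's level of 1.45 CPM in at least 1 Control library. Of the bile duct markers Krt19 and Cftr were at 0 in replicate 1. The 6 Kupffer cell and 6 stellate cell markers had 0 higher calls, and 1 of the stellate ones, Ecm1, was lower. The part of other cells in the F11r and Ocln values was not tested.

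Among the other tight junction genes, 11 of 29 tested were called higher and 2 lower, beside 31.3% and 12.8% of all tested genes. They come from a list of 50 symbols, of which 49 were found. Of the 11 higher calls 8 were of genes under the filter's level of 1.45 CPM in at least 1 Control library, which therefore passed with the help of DKO reads, as did 3986 of the 4871 higher calls over all genes. Their median log2 fold change was 0.46. After background subtraction 3 of 24 tested were called higher and 6 lower, beside 17.3% and 20.8% of all tested genes. Each of these 6 had no more DKO reads than its expected background in any library, so subtraction left none and set the direction. The 4 other claudins and relatives that were tested, Cldn10, Cldn15, Cldn19 and Tmem114, were all called higher, but they had at most 14 counts in total over the Control libraries, so their direction was set by the filter. Cldn19, a claudin of kidney and nerve, had 0, 1 and 0 Control counts and 14, 3 and 48 DKO counts, where 7.64, 5.78 and 14.5 were expected from background.

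Scaffolds other than Tjp1 moved both ways. Patj and Magi2, PDZ scaffolds, were called higher, with log2 fold changes of 2.34 (adjusted p = 0.0205) and 6.55 (0.00069). Magi2 had 1, 1 and 1 Control counts, so its direction was set by the filter, and its 24 DKO reads lay below the 76.8 that background alone gave. Patj had 118 against 77.0, and its call was lost after background subtraction (0.372). Mpp5, also named Pals1, which links Patj to the Crumbs complex, was lower, with a log2 fold change of -3.87 at adjusted p = 0.0104. It had 206, 231 and 227 Control counts against 0, 2 and 1 DKO counts. Background subtraction left Mpp5 no DKO read, so its lower call there (0.0102) was set by the subtraction. Another 11 scaffolds and plaque proteins were not called, Cgnl1, Ybx3 and Afdn, the highest per length in Control, among them (log2 fold changes of -1.44, 0.91 and -0.77).

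Of the other membrane proteins, Jam3, Esam, Ildr1 and Marveld3 were called higher and Igsf5 lower. Jam3, a relative of F11r, had 49, 15 and 12 Control counts and 39, 8 and 44 DKO counts. Its log2 fold change of 4.12, at adjusted p = 0.00279, held after background subtraction, with 0.0165. Jam3 lay under the filter's level in part of the Control libraries. An antisense gene covers 1159 of its exonic bases, so its reads may be shared. Log2 fold changes were 2.08 for Esam, an endothelial relative (adjusted p = 0.0332), 3.25 for Marveld3, a relative of occludin (0.0195), and 6.80 for Ildr1, a protein of tricellular contacts (0.000941). After background subtraction Esam and Marveld3 lost their calls (adjusted p = 0.0797 and 0.234). Marveld3, with 26, 22 and 15 Control counts, also lay under the filter's level in part of the Control libraries. Its 36 DKO reads stood beside 21.5 expected from background. Ildr1 had 0, 2 and 3 Control counts against 10, 13 and 22 in DKO, where 29.4 were expected from background in all, and its direction was set by the filter. After background subtraction Ildr1 was still called higher, at 5.83 (adjusted p = 0.0102). Igsf5, also called JAM4, fell, by a log2 fold change of -2.59, with adjusted p = 0.0497, a call lost after background subtraction (0.198). Lsr, with 1632, 1423 and 1124 counts against 0, 44 and 6, and the virus receptor gene Cxadr, with 872, 751 and 683 against 0, 23 and 23, were not called (adjusted p = 0.164 and 0.176). Like the claudins, Lsr had most of its DKO reads in replicate 2.

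The genes most like the called claudins over the 6 libraries were compared by the root mean square difference of centred log2 TMM-scaled CPM. Nearest to Cldn2 among 9978 candidate genes were Ttr, the plasma carrier transthyretin, at 0.17, the carboxylesterase Ces1c at 0.22 and the fatty acid hydroxylase Cyp4a10 at 0.22. Ttr had 29, 1364 and 138 reads in DKO replicates 1, 2 and 3, the same high value in replicate 2 that Cldn2 showed. Nearest to Cldn3 were Lrrc59, a protein of the endoplasmic reticulum, at 0.17, the carboxylesterase Ces2g at 0.18 and the membrane protease Mmp15 at 0.19. These 3 had 0 reads in DKO replicate 1, 7 to 10 in replicate 2 and 2 to 4 in replicate 3, against 0, 7 and 3 for Cldn3.

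Scaling set the zero from which the 9 genes were read. Setting libraries on the 163 abundant liver genes, which keeps background reads, moved the median log2 fold change of all tested genes from -0.08 to 4.68 and called 62.5% of them higher and 0.546% lower. On that scale Cldn3 had -0.98, Cldn2 -0.93, Cldn1 -0.66, Cldn12 0.31, Cldn5 0.85, Cldn14 2.19, Tjp1 5.50, Ocln 5.53 and F11r 6.58, the last 4 called higher. Relative to the median of all genes the claudins lay at -5.66 to -2.49 there, against -3.86 to -0.73 under TMM. Ocln, Tjp1 and F11r lay at 0.86, 0.82 and 1.90 relative to that median, against 0.16, -0.15 and 0.88 under TMM, so that Tjp1 changed sides. After background subtraction the median of all tested genes was -1.31, with 17.3% called higher and 20.8% lower. Cldn5 was called lower (adjusted p = 0.0158), with 3 DKO reads where 8.22 were expected from background. Subtraction left it no DKO read and so set its direction. None of the other 8 genes was called. Relative to that median Cldn14 (0.21) and Tjp1 (0.12) lay above 0 and the other 5 claudins below it.

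**Figure D5:**
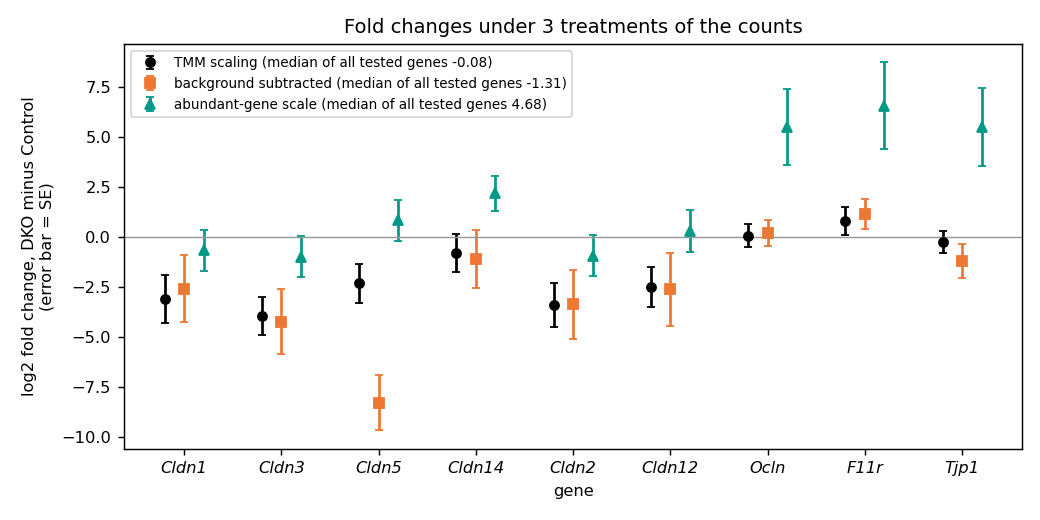
Log2 fold change of labelled DKO against Control for each gene, with its SE, under TMM scaling (black), after subtraction of expected background (orange) and on the scale of abundant liver genes (green). The medians of all tested genes are -0.08, -1.31 and 4.68. In each treatment the claudins Cldn1, Cldn2, Cldn3 and Cldn12 lie below Ocln, F11r and Tjp1.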

How the data were processed

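RNA-seq gene counts of 6 mouse liver libraries were used. The authors deposited raw counts of reads for each Ensembl gene ID, which are whole numbers. The submitters' processing notes name STAR, HTSeq and the mm10 build. The sources used here do not name versions, library kit, strand setting or annotation release. A company prepared and sequenced the libraries, per the labels' protocols. The 5 rows of each table that name no gene (65.1% to 97.3% of reads) stayed out of library sizes and tests. Of the 43346 gene IDs, 42462 had a name in the gene name table. Positions and exonic lengths were taken from the GENCODE M21 annotation of mm10. Promoter windows came from RefSeq, where all 9 genes matched. Transcript GC content gave the bins of the background estimate.

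The test was edgeR 4.0.16 (quasi-likelihood, robust, TMM, filterByExpr by group) in R 4.3.3, fitted over all 15561 genes that passed the filter, all 9 members among them, two-sided and with no covariate, and a call needed a Benjamini-Hochberg adjusted p under 0.05. SE is the log2 fold change over the root of the quasi-likelihood F. On simulated counts with Control proportions, the real library sizes and 200 genes of 15561 changed, it recovered 99% of 4-fold and 100% of 8-fold changes, with 7 false calls; the simulated spread was that of Control libraries (coefficient of variation 19.2%, against 63.9% over all 6 libraries). Alternatives were DESeq2 1.42.0, other scalings and filters, background subtraction, a replicate block, single DKO libraries and leaving out each library. Background was measured in reads per kb, in 10 GC bins, over the 8600 protein-coding genes whose Control counts reached at most 10. Abundant genes were the 163 coding genes of the nuclear genome whose Control counts passed 30000. Intervals are Wilson or exact at 95% and cover counting error only, since reads carry no molecular identifiers. All libraries held different values, and counts of each replicate pair differed by more than sampling noise (chi-square of at least 5.95 per degree of freedom). The members and gene lists were chosen with earlier results of these data known. Named genes were the 9 members, and other tight junction genes past the threshold or among the 3 highest per kb of their list in Control. For each called member the 3 genes nearest in centred log2 of TMM-scaled CPM with 0.5 added were also named. Marker genes were named after their values were seen. Some genes of the lists are counted in their totals but not reported here by name.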

Additional observations from a re-analysis of the deposited data

Results flagged for a closer look

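Reads in rows that name no gene lie outside the tests, and they took a larger share in the labelled DKO libraries than in any Control library. The share was 97.3%, 95.4% and 95.3% in DKO replicates 1, 2 and 3, against 65.1%, 66.0% and 66.7% in Control replicates 1, 2 and 3. DKO replicate 1, with the largest share, was also the library with 1 claudin read among the 153 reads of the 9 genes.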

How the results depend on the processing

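Counts of called members were small and moved with most settings. The 2 lower calls became 0 on the abundant-gene scale, 1 after background subtraction (Cldn5), 1 on library size alone, 5 with DESeq2, 5 with its size factors, 4 without a filter and 4 with a replicate block (Cldn1 at -4.31 and Cldn12 at -3.30 added). DKO replicates 1, 2 and 3 alone gave 6, 5 and 5 lower and 1, 1 and 0 higher, beside 44.9%, 28.6% and 33.8% of all genes lower; the spread there comes from Control alone, so these calls compare single libraries. Leaving out each library gave 1 to 5 lower and 0 higher: 1 without any one Control replicate (where Cldn5 did not pass the filter) or without DKO replicate 3, 4 without DKO replicate 1 and 5 without replicate 2. The abundant-gene scale gave 4 higher. The numbers share no stated source: deviations of same-numbered libraries correlated at 0.12, 0.08 and -0.02, and not every library correlated best with its own number, so the block is no sign of pairing.

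Other tight junction genes, 11 higher and 2 lower, became 21 and 0 on the abundant-gene scale, beside 62.5% and 0.546% of all genes. They became 3 and 6 of 24 tested after background subtraction, beside 17.3% and 20.8% of all genes. Higher calls were 7 with DKO replicate 1 alone and 6 to 11 when leaving out each library. Lower calls were 13, 7 and 8 with DKO replicates 1, 2 and 3 alone, 5 with DESeq2, 1 on library size, 6 without a filter and 0 to 5 when leaving out each library. Over all genes, 4871 higher became 9718 on the abundant-gene scale, 2310 after background subtraction and 11477 without a filter. The 1992 lower became 85 on the abundant-gene scale, 3577 with DESeq2's size factors, 4776 with DESeq2, 4650 without a filter, 7013, 4374 and 5716 with single DKO libraries, and 567 to 4492 when leaving out each library.

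The abundant-gene scale moved the median of all genes to 4.68, and with it the sign of Cldn12 (0.31), Cldn5 (0.85), Cldn14 (2.19) and Tjp1 (5.50); relative to the median these were -4.37, -3.83, -2.49 and 0.82. Tjp1 also turned on library size (0.50) and with DKO replicate 3 alone (0.13), Cldn14 with replicate 2 alone (0.62) and F11r with replicate 3 alone (-0.31). Ocln, near 0, turned to -0.27 without a filter, -0.19 and -0.0095 with DKO replicates 1 and 3 alone, and ranged from -0.18 to 0.53 when leaving out each library (-0.07 and -0.09 without Control replicates 2 and 3, -0.18 without DKO replicate 2). Cldn1, Cldn2 and Cldn3 turned in none of the 17 settings. The longest transcript as length moved the Control level per kb to 16.6 for Cldn12, 6.17 for Cldn14, 19.7 for Cldn2 and 3.95 for Tjp1, which put Cldn14 above Ocln (5.69) and Tjp1 above Cldn5. The claudin share fell by 53.4 percentage points from Control to DKO; it fell by 47.0 to 61.4 points when leaving out each library and fell by 58.3 points after background subtraction. The background share, its version without GC bins and these share settings were added after the data were seen. The cause of these shifts was not tested. Depth limits the DKO libraries to 153, 207 and 153 reads over the 9 genes.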
